A study of Homo sapiens with 6 samples.

Results

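The genes described here are those of the NRF2 response and of the glutathione, thioredoxin and pentose phosphate systems, which together keep a cell's thiols and NADPH reduced. They came from a fixed list of 36 genes: a gene counted as measured if a transcript cluster, the array's gene-level unit, carried its symbol and no other, and as tested if that cluster reached a log2 signal of at least 5 on at least 2 arrays. Of the 36, 32 had such a cluster and 26 were tested, out of 24721 tested clusters and 11191 tested genes in all, and each of the 26 reached 5 on all 6 arrays. RNA came from HCT116, an established human colon cancer line. It was transfected for 48 h with 50 nM of a control siRNA, si(-), or of siH19-1 or siH19-2, siRNAs named for the imprinted long noncoding RNA H19. Each group had 2 arrays, labelled as biological replicates of the same line. All cultures shared the line and the lipid transfection, and the control group was transfected too. The labels do not say whether replicates came from separately grown cultures or days. The p-values therefore weigh a difference against the spread between these arrays, moderated across all tested clusters.

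NRF2, encoded by NFE2L2, is a transcription factor that KEAP1 holds in the cytosol and delivers to the proteasome. When electrophiles or oxidants modify KEAP1, NRF2 accumulates, pairs with small MAF proteins and binds antioxidant response elements. Its textbook targets make glutathione, reduce thioredoxin, conjugate or reduce quinones, store iron and supply NADPH through the pentose phosphate pathway and malic enzyme. NRF2 is controlled largely at the level of protein stability, so its mRNA is not a readout of its activity. In RNA from whole cultures, fewer cells that express a gene and less RNA per cell cannot be told apart.

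Values are RMA log2 signals, so a difference of 1 is a fold of 2 in signal, and signals of different genes were not compared. The median transcript cluster was at 4.1 to 4.2 on the 6 arrays. The cluster annotated to both H19 and MIR675 was at 4.82 and 5.02 on control arrays, 4.90 and 4.99 with siH19-1 and 4.95 and 5.02 with siH19-2. It was therefore not lower with either siRNA (log2 fold change 0.045 for the mean of both, 95% interval -0.20 to 0.29, limma adjusted p = 0.822). This signal was close to the filter of 5 on every array, so a fall of H19 could go unseen here. All directions below rest on the labels siH19-1 and siH19-2. Of 7 markers of a colon epithelial line 5 passed the filter, while CDX2 and LGALS4 did not. The log2 summed signal of these 7 was 14.19 to 14.50 in control, 14.70 to 14.87 with siH19-1 and 14.67 to 14.74 with siH19-2, and among them CDH1 was at 6.62 and 7.0, 8.25 and 8.24, and 9.92 and 9.87. Of the markers of other cell types, 1 of 4 fibroblast (COL1A1, mean 5.00), 1 of 4 immune and 0 of 4 endothelial genes passed. The immune gene that passed was CD68, which was at 7.97 and 7.71 with siH19-1 against 6.84 and 6.81 in control, so the log2 summed signal of the immune markers was 7.98 to 8.20 with siH19-1, 7.28 to 7.29 in control and 7.14 to 7.34 with siH19-2. The defining marker PTPRC lay between 3.44 and 3.56 on the 6 arrays. The part of these signals in the results below was not tested.

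The largest change among the redox genes was a fall of PGD, the second NADPH-producing dehydrogenase of the pentose phosphate pathway, to a 4.91-fold lower signal with siH19-2. The largest rise was that of GCLM, the modifier subunit of the rate-limiting enzyme of glutathione synthesis, to a 3.12-fold higher signal with siH19-1. TXNRD1, ME1 and FTL rose with each siRNA. With siH19-2, 10 genes fell, among them both tested glutathione peroxidases, catalase, SOD1, thioredoxin, PRDX2 and NQO1, and of those 10 genes none was called with siH19-1. Set against each other, 15 of the 26 genes were lower with siH19-2 than with siH19-1 and 0 were higher.

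With siH19-1 against control, 6 of the 26 tested genes rose and 1 fell at a limma adjusted p under 0.05, where 6.22% of all tested clusters were called (2.65% higher and 3.56% lower). With siH19-2, 3 rose and 10 fell, where 21.0% were called (10.2% higher and 10.8% lower). For the mean of both siRNAs, 5 rose and 6 fell, where 12.4% were called (5.19% higher and 7.17% lower). Between the siRNAs 15 of 26 were called, all of them lower with siH19-2, where 18.2% were called (9.76% higher and 8.42% lower with siH19-2). The median log2 fold change over the 26 genes was 0.19 with siH19-1, -0.18 with siH19-2 and -0.555 for siH19-2 against siH19-1, beside medians of -0.02, 0.045 and 0.06 over all tested clusters. Among the 8115 clusters with a mean signal of at least 8, where 22 of the 26 genes lie, 14.4% were lower and 13.6% higher with siH19-2 than with siH19-1, and 13 of the 22 were lower.

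The ranges of the arrays often separated without a call. With siH19-1, 13 of the 26 genes lay above both control arrays and 6 below, where 22.2% and 27.3% of all clusters did (49.6% in either direction). With siH19-2, 6 lay above and 16 below (32.7% and 28.2% of all clusters, 60.9% in either direction). For both siRNAs together against control, 6 lay above and 5 below (12.2% and 14.3% of all clusters, 26.5% in either direction). Between the siRNAs, 3 lay higher and 20 lower with siH19-2 (36.7% and 27.0% of all clusters, 63.8% in either direction).

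In the mean of both siRNAs the 5 genes that rose were GCLM and TXNRD1 (1.06 each on the log2 scale), ME1 (0.955), FTL (0.83) and GSR (0.44). The 6 that fell were PGD (-1.45), GPX4 (-0.77, limma adjusted p = 0.0189), CAT (-0.60, adjusted p = 0.0304), NQO1 (-0.59), TALDO1 (-0.57, adjusted p = 0.0438) and RPIA (-0.46, adjusted p = 0.0401). This mean joins siRNAs that differed, and 3 of the 11 genes were called with each siRNA alone.

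Which genes passed rested on few arrays. The called genes kept their sign without each array, while the counts fell: with siH19-1 to 2 and 4 without control replicates 1 and 2, to 0 without either siH19-1 replicate (10 genes at an unadjusted p under 0.05 each time, and 0 of all clusters called by limma) and to 4 without either siH19-2 replicate. For siH19-2 against control 4 genes passed without siH19-2 replicate 1 and 7 without replicate 2. A lone array left in a group was taken to vary like the others. For the mean of both siRNAs the count was 3 without control replicate 1, 7 without control replicate 2, 5 without either siH19-1 replicate, and 5 and 7 without siH19-2 replicates 1 and 2. Between the siRNAs it was 1 without siH19-1 replicate 1, siH19-1 replicate 2 or siH19-2 replicate 1, and 7 without siH19-2 replicate 2. The share of all clusters called fell in the same fits. It was 0 to 3.11% with siH19-1, 5.20% to 14.8% with siH19-2, 2.57% to 7.17% for the mean of both and, between the siRNAs, 2.09% to 5.34% without an siH19 array. Calls that held without each array were those of PGD, ME1 and FTL for the mean of both siRNAs, of PGD, GPX4, NQO1 and TXNRD1 with siH19-2, and of PGD between the siRNAs. For the mean of both siRNAs NQO1, GSR and RPIA were lost without each array, CAT and TALDO1 without 5 of 6, GPX4 without 4, and GCLM and TXNRD1 without control replicate 1 (adjusted p = 0.0628 and 0.0543). With no filter that mean also lost TALDO1 (0.0986), RPIA (0.0994) and CAT (0.0728).

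**Figure D1:**
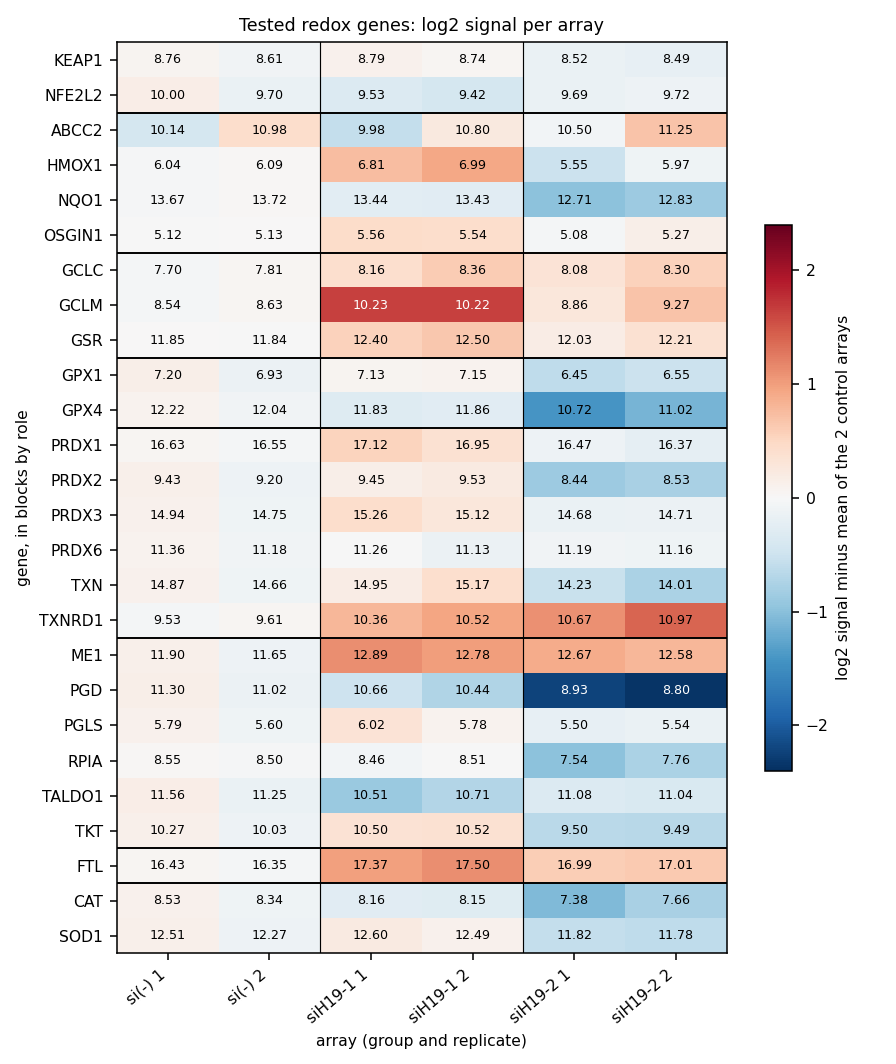
Log2 signal of each of the 26 tested genes (rows, in blocks by role) on each of the 6 arrays (columns); the printed number is the signal and the colour is its difference from the mean of the 2 control arrays. GCLM is reddest on the siH19-1 arrays (10.23 and 10.22) and PGD bluest on the siH19-2 arrays (8.93 and 8.80), and ABCC2 differs between replicate numbers in every group.

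Of the transcription factor and its inhibitor, neither passed in any comparison. NFE2L2 was at 10.00 and 9.70 on control arrays, 9.53 and 9.42 with siH19-1 and 9.69 and 9.72 with siH19-2. Both siH19-1 arrays were below both control arrays, while the siH19-2 arrays overlapped them. The log2 fold change was -0.375 with siH19-1 (95% interval -0.71 to -0.04, adjusted p = 0.183) and -0.145 with siH19-2 (interval -0.48 to 0.19, adjusted p = 0.506). KEAP1, the adaptor that brings NRF2 to a ubiquitin ligase, lay between 8.49 and 8.79 on the 6 arrays, with log2 fold changes of 0.08 and -0.18 and intervals within -0.44 and 0.34. The small MAF gene MAFG was under the filter, at 3.82 to 4.11.

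GCLM, of glutathione synthesis, and GSR, of its recycling, rose with siH19-1. GCLM was at 8.54 and 8.63 on control arrays, 10.23 and 10.22 with siH19-1 and 8.86 and 9.27 with siH19-2. The siH19-1 arrays stood well above the others, and the siH19-2 arrays lay between them and control without overlap. GCLM rose with siH19-1 by 1.64 on the log2 scale (SE 0.16, limma adjusted p = 0.0097), while 0.48 with siH19-2 did not pass (adjusted p = 0.0867). The difference between the siRNAs passed (-1.16, SE 0.16, adjusted p = 0.0092), as did the rise in the mean of both (1.06, adjusted p = 0.0112). GCLC, the catalytic subunit of the same enzyme, was at 7.70 and 7.81 in control, 8.16 and 8.36 with siH19-1 and 8.08 and 8.30 with siH19-2. Each siH19 array was above both control arrays, and log2 fold changes of 0.505 (adjusted p = 0.090), 0.435 (adjusted p = 0.0699) and 0.47 for the mean of both (adjusted p = 0.0524) did not pass. With the replicate number as a block GCLC passed in these 3 comparisons (adjusted p = 0.0400, 0.0273 and 0.0232), and with the filter at log2 6 it passed for the mean of both (0.0392). The siRNAs did not differ for GCLC beyond the error (-0.07, 95% interval -0.39 to 0.25).

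GSR, the reductase that returns oxidised glutathione to its reduced form, was at 11.85 and 11.84 in control, 12.40 and 12.50 with siH19-1 and 12.03 and 12.21 with siH19-2. The 3 groups were in separate ranges. GSR rose with siH19-1 (0.605, SE 0.12, adjusted p = 0.0439) and in the mean of both (0.44, adjusted p = 0.0470), and 0.275 with siH19-2 did not pass (adjusted p = 0.159). The GSR calls were lost without each of the 6 arrays in turn (adjusted p from 0.088 to 0.236 with siH19-1 and from 0.0936 to 0.145 for the mean of both). They were also lost with no filter (0.102 and 0.110), median centring (0.0770 and 0.0983), quantile normalization (0.0545 and 0.0744) and with scaling to the 2995 rows that are not transcript clusters (0.0662 and 0.0582), 1437 of which are exon-level rows, and with siH19-1 when the groups were compared alone (0.0880). The GCLM call with siH19-1 was lost without control replicate 1 (0.0524), siH19-1 replicate 1 (0.0959) or siH19-1 replicate 2 (0.0795), where its log2 fold change was 1.595 to 1.645.

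**Figure D2:**
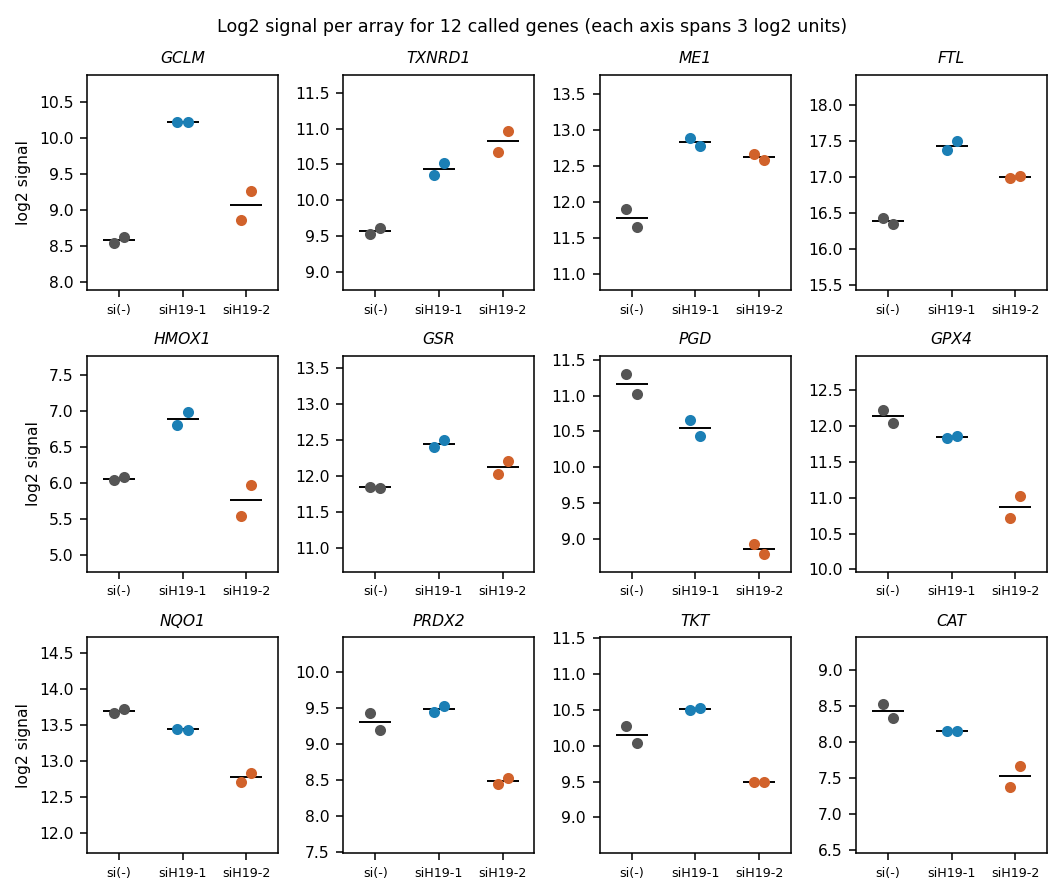
Log2 signal (vertical axis, 3 log2 units in each panel) of 12 called genes in the 3 groups (horizontal axis); points are single arrays and bars the mean of 2 arrays. The upper row and HMOX1 and GSR are highest with an siH19 siRNA, and PGD, GPX4, NQO1, PRDX2, TKT and CAT are lowest with siH19-2.

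In the thioredoxin system the reductase rose while thioredoxin and a peroxiredoxin fell with siH19-2. TXNRD1, the selenoenzyme that reduces thioredoxin with NADPH, was at 9.53 and 9.61 in control, 10.36 and 10.52 with siH19-1 and 10.67 and 10.97 with siH19-2. All 4 siH19 arrays lay above both control arrays. TXNRD1 rose by 0.87 with siH19-1 (SE 0.14, adjusted p = 0.0304) and by 1.25 with siH19-2 (SE 0.14, adjusted p = 0.0052), and the siRNAs did not differ at the threshold (0.38, 95% interval 0.03 to 0.73, adjusted p = 0.127). TXN, which encodes thioredoxin, was at 14.87 and 14.66 in control, 14.95 and 15.17 with siH19-1 and 14.23 and 14.01 with siH19-2. It fell with siH19-2 (-0.645, adjusted p = 0.0327), did not pass with siH19-1 (0.295, adjusted p = 0.318) and differed between the siRNAs (-0.94, adjusted p = 0.0132).

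The peroxiredoxins are peroxidases that thioredoxin reduces, with PRDX3 in mitochondria. PRDX2 was at 9.43 and 9.20 in control, 9.45 and 9.53 with siH19-1 and 8.44 and 8.53 with siH19-2, so only the siH19-2 arrays were low. It fell with siH19-2 (-0.83, SE 0.12, adjusted p = 0.0098). PRDX1 was at 16.63 and 16.55 in control, 17.12 and 16.95 with siH19-1 and 16.47 and 16.37 with siH19-2. PRDX3 was at 14.94 and 14.75, 15.26 and 15.12, and 14.68 and 14.71 in the same order of groups. For both, the siH19-1 arrays were the highest and the siH19-2 arrays the lowest, neither siRNA passed against control, and the difference between the siRNAs passed (-0.615 and -0.495, adjusted p = 0.0187 and 0.0414). With the replicate block PRDX1 passed with siH19-1 as well (0.445, adjusted p = 0.0402), and with quantile normalization PRDX3 fell with siH19-2 (-0.33, adjusted p = 0.0434). The differences between the siRNAs were lost with scaling to the non-cluster rows (0.0570 for PRDX1 and 0.0969 for PRDX3), and that of PRDX3 also with no filter (0.0991) and median centring (0.0594). PRDX6, which works with glutathione in place of thioredoxin, lay between 11.13 and 11.36 on the 6 arrays and passed in no comparison. The TXNRD1 call with siH19-1 was lost without each array (adjusted p from 0.0534 to 0.169), with no filter (0.0670) and with the groups compared alone (0.0534). The TXN call with siH19-2 was lost without each array but control replicate 2 (0.0583 to 0.150), with no filter (0.0744) and with the groups compared alone (0.0590). PRDX2 with siH19-2 was lost without siH19-2 replicate 1 (0.0716).

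Both tested glutathione peroxidases, selenoenzymes that reduce peroxides with glutathione, fell with siH19-2. GPX4, which acts on lipid hydroperoxides in membranes and guards against ferroptosis, was at 12.22 and 12.04 in control, 11.83 and 11.86 with siH19-1 and 10.72 and 11.02 with siH19-2. The siH19-2 arrays were below all others. GPX4 fell by 1.26 on the log2 scale with siH19-2 (SE 0.14, adjusted p = 0.0052) and was at -0.285 with siH19-1 (adjusted p = 0.324). GPX1, the abundant cytosolic form, was at 7.20 and 6.93 in control, 7.13 and 7.15 with siH19-1 and 6.45 and 6.55 with siH19-2. It fell with siH19-2 (-0.565, adjusted p = 0.0278) and was lower with siH19-2 than with siH19-1 (-0.64, adjusted p = 0.0212). GPX1 with siH19-2 was lost without each array but control replicate 2 (adjusted p from 0.0606 to 0.140), with no filter (0.0688) and with the groups compared alone (0.0604), and its difference between the siRNAs with no filter (0.0528). GPX2, the gastrointestinal form, was just under the filter at 4.15 to 4.61, and the gene just above it was OSGIN1 at 5.08 to 5.56.

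Of 2 classical NRF2 targets, HMOX1 rose with siH19-1 and NQO1 fell with siH19-2. HMOX1, which degrades heme, was at 6.04 and 6.09 in control, 6.81 and 6.99 with siH19-1 and 5.55 and 5.97 with siH19-2. The siH19-1 arrays were above and the siH19-2 arrays below both control arrays. It rose with siH19-1 (0.835, SE 0.16, adjusted p = 0.0424), did not pass with siH19-2 (-0.305, adjusted p = 0.238) and differed between the siRNAs (-1.14, adjusted p = 0.0100). NQO1, a quinone reductase, was at 13.67 and 13.72 in control, 13.44 and 13.43 with siH19-1 and 12.71 and 12.83 with siH19-2. It fell with siH19-2 (-0.925, SE 0.11, adjusted p = 0.0053) and in the mean of both (-0.59, adjusted p = 0.0174), and -0.26 with siH19-1 did not pass (adjusted p = 0.232). The HMOX1 call with siH19-1 was lost without each control array and each siH19-1 array in turn (adjusted p from 0.110 to 0.204), with no filter (0.0972) and with median centring (0.0514).

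OSGIN1 and ABCC2 passed in no comparison. OSGIN1, an oxidative stress-induced growth inhibitor, was at 5.12 and 5.13 in control, 5.56 and 5.54 with siH19-1 and 5.08 and 5.27 with siH19-2 (0.425 with siH19-1, adjusted p = 0.0818). With quantile normalization it was lower with siH19-2 than with siH19-1 (-0.44, adjusted p = 0.0402). ABCC2, an apical export pump for glutathione conjugates, was at 10.14 and 10.98 in control, 9.98 and 10.80 with siH19-1 and 10.50 and 11.25 with siH19-2. In each group replicate 2 was higher than replicate 1, by 0.80 on average, a gap larger than that of 99.5% of all tested clusters (adjusted p = 0.180 for the replicate term). With the replicate block ABCC2 passed for siH19-2 against siH19-1 (0.485, adjusted p = 0.0229), and without it that difference did not pass (adjusted p = 0.475). The aldo-keto reductase genes AKR1B10, AKR1C1, AKR1C2 and AKR1C3 were under the filter on each of the 6 arrays, with signals from 3.18 to 4.27. The AKR1C genes are close paralogs, so their probes may share signal.

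Among the tested enzymes of the pentose phosphate pathway, PGD, TKT and RPIA fell with siH19-2 and TALDO1 fell with siH19-1, while ME1, which makes NADPH outside the pathway, rose with each. PGD, which encodes 6-phosphogluconate dehydrogenase, was at 11.30 and 11.02 in control, 10.66 and 10.44 with siH19-1 and 8.93 and 8.80 with siH19-2. The 3 groups were in separate ranges, with siH19-2 more than 1.5 log2 units below siH19-1. PGD fell by 2.295 on the log2 scale with siH19-2 (SE 0.15, 95% interval -2.66 to -1.93, adjusted p = 0.0027) and in the mean of both (-1.45, adjusted p = 0.0059), and it was lower with siH19-2 than with siH19-1 (-1.685, adjusted p = 0.0044). Its log2 fold change of -0.61 with siH19-1 did not pass (adjusted p = 0.0779), but did with the replicate block (0.0304), quantile normalization (0.0305) and scaling to the non-cluster rows (0.0208).

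TALDO1, TKT and RPIA belong to the non-oxidative branch, which links the pathway to glycolysis, and of these TKT and RPIA differed between the siRNAs. TALDO1, transaldolase, was at 11.56 and 11.25 in control, 10.51 and 10.71 with siH19-1 and 11.08 and 11.04 with siH19-2, and it was the only one of the 26 genes to fall with siH19-1 (-0.795, SE 0.15, adjusted p = 0.0403). With siH19-2 it was at -0.345 (adjusted p = 0.161), and the siRNAs did not differ at the threshold (0.45, adjusted p = 0.0928), though they did with scaling to the non-cluster rows (0.60, adjusted p = 0.0159). TKT, transketolase, was at 10.27 and 10.03 in control, 10.50 and 10.52 with siH19-1 and 9.50 and 9.49 with siH19-2. Its siH19-1 arrays were the highest and its siH19-2 arrays the lowest. TKT fell with siH19-2 (-0.655, adjusted p = 0.0183), did not pass with siH19-1 (0.36, adjusted p = 0.161) and differed between the siRNAs (-1.015, adjusted p = 0.0072).

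RPIA, ribose-5-phosphate isomerase, was at 8.55 and 8.50 in control, 8.46 and 8.51 with siH19-1 and 7.54 and 7.76 with siH19-2. It fell with siH19-2 (-0.875, SE 0.12, adjusted p = 0.0072) and was at -0.04 with siH19-1 (95% interval -0.32 to 0.24). PGLS, the lactonase between the dehydrogenases, lay between 5.50 and 6.02 and passed in no comparison, though with quantile normalization it was lower with siH19-2 than with siH19-1 (-0.45, adjusted p = 0.0370). ME1, the cytosolic malic enzyme that makes NADPH from malate, was at 11.90 and 11.65 in control, 12.89 and 12.78 with siH19-1 and 12.67 and 12.58 with siH19-2. All 4 siH19 arrays were above control, and ME1 rose with siH19-1 (1.06, SE 0.13, adjusted p = 0.0156) and with siH19-2 (0.85, SE 0.13, adjusted p = 0.0111) with no difference at the threshold between them (-0.21, 95% interval -0.54 to 0.12).

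Among these, the TALDO1 call with siH19-1 was lost without each array but control replicate 2 (adjusted p from 0.0939 to 0.213), with no filter (0.0900), with median centring (0.0514) and with the groups compared alone (0.0937). The TKT call with siH19-2 was lost without control replicate 1 (0.0506) or either siH19-2 replicate (up to 0.101). RPIA with siH19-2 was lost without siH19-2 replicate 1 (0.0507). The ME1 calls were lost without either replicate of the siRNA in question (0.107 and 0.125 with siH19-1, 0.0561 and 0.080 with siH19-2).

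FTL, the light chain of the iron store ferritin, was at 16.43 and 16.35 in control, 17.37 and 17.50 with siH19-1 and 16.99 and 17.01 with siH19-2. The groups were in separate ranges, with siH19-1 the highest. FTL rose with siH19-1 (1.045, SE 0.10, adjusted p = 0.0102) and with siH19-2 (0.61, SE 0.10, adjusted p = 0.0136), and its signal was lower with siH19-2 than with siH19-1 (-0.435, adjusted p = 0.0378). FTL has many processed pseudogenes whose sequence its probes may share. Ferritin mRNA is also controlled in translation by iron, which these arrays do not measure. The difference between the siRNAs was lost with no filter (adjusted p = 0.102), quantile normalization (-0.60, adjusted p = 0.055), median centring (-0.46, 0.0622) and scaling to the non-cluster rows (-0.285, 0.198). The rise with siH19-2 was lost with quantile normalization (0.0626), and the FTL calls against control were lost without either replicate of the siRNA in question (0.0879 and 0.0924 with siH19-1, 0.0796 and 0.0869 with siH19-2).

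SOD1 and CAT, whose enzymes clear superoxide and hydrogen peroxide, fell with siH19-2. SOD1, the copper-zinc superoxide dismutase, was at 12.51 and 12.27 in control, 12.60 and 12.49 with siH19-1 and 11.82 and 11.78 with siH19-2. CAT, peroxisomal catalase, was at 8.53 and 8.34, 8.16 and 8.15, and 7.38 and 7.66. In both genes the siH19-2 arrays were the lowest. With siH19-2 the log2 fold change was -0.59 for SOD1 (adjusted p = 0.0284) and -0.915 for CAT (adjusted p = 0.0098), and both were lower with siH19-2 than with siH19-1 (-0.745 and -0.635, adjusted p = 0.0163 and 0.0294). With siH19-1 neither passed (0.155 and -0.28, adjusted p = 0.564 and 0.302). SOD1 with siH19-2 was lost without each array but control replicate 2 (0.0633 to 0.127), with no filter (0.0635) and with the groups compared alone (0.0636). CAT with siH19-2 was lost without siH19-2 replicate 1 (0.0601), and its difference between the siRNAs with no filter (0.0696). SOD2, SRXN1 and RPE lay on clusters that carry a second gene's symbol and FTH1 matched no cluster, so no value is given for these 4.

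**Figure D3:**
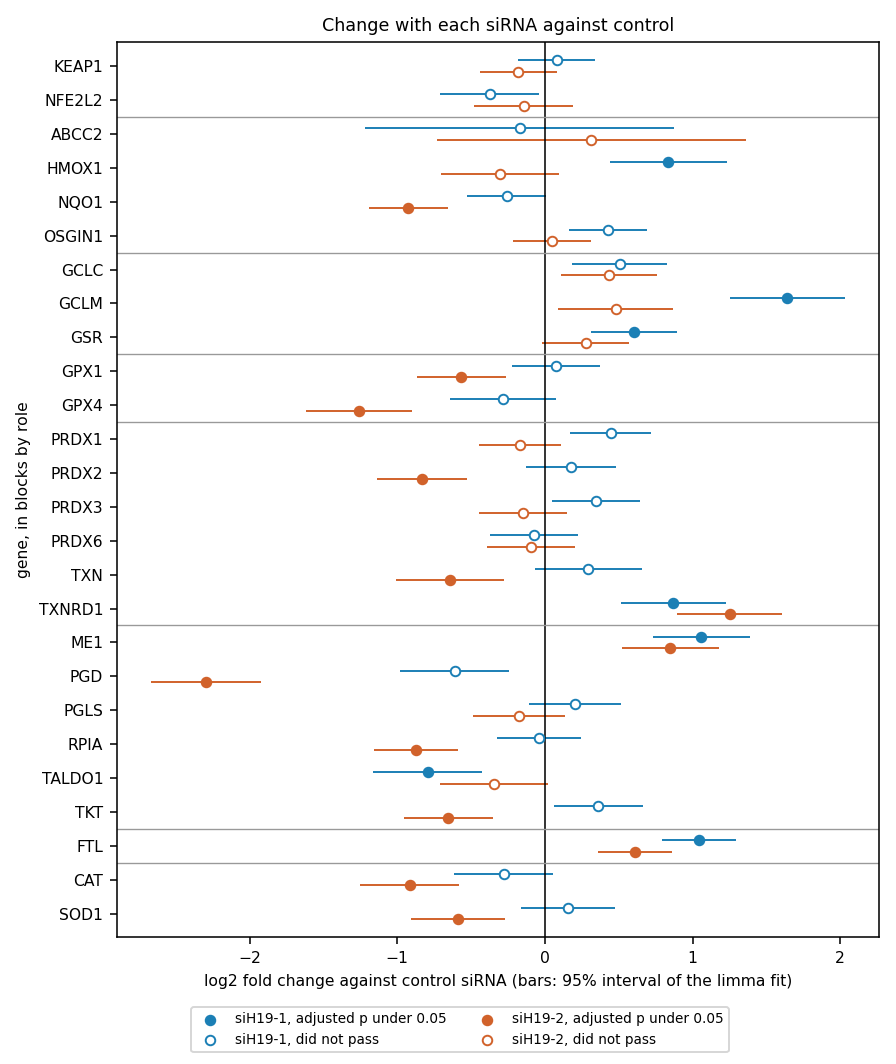
Log2 fold change against control (horizontal axis) of each of the 26 tested genes (vertical axis, in blocks by role), with siH19-1 in blue and siH19-2 in orange; bars are 95% intervals of the limma fit, filled points passed at an adjusted p of 0.05 and open points did not. TXNRD1, ME1 and FTL are filled on the right for both siRNAs, and the 10 filled points on the left for siH19-2 have open siH19-1 points.

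By the calls against control, 3 of the 26 genes rose with each siRNA (TXNRD1, ME1 and FTL), 0 fell with each and 0 were called in opposite directions. Only 1 gene was called lower with siH19-1, which limits how many could fall with each. The share of all clusters called with each siRNA was not counted, so whether these counts are unusual was not tested. The 2 comparisons against control share the 2 control arrays. The direct comparison sets the siH19 arrays against each other, with the control arrays entering only the estimate of the spread, and there the 15 genes that were lower with siH19-2 spanned -0.435 for FTL to -1.685 for PGD. They came from 7 of the 8 roles: HMOX1 and NQO1, GCLM, both glutathione peroxidases, TXN with PRDX1, PRDX2 and PRDX3, PGD, TKT and RPIA, FTL, and SOD1 and CAT. Only NFE2L2, TXNRD1, TALDO1 and ABCC2 had a higher mean with siH19-2 than with siH19-1, and none of the 4 passed.

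**Figure D4:**
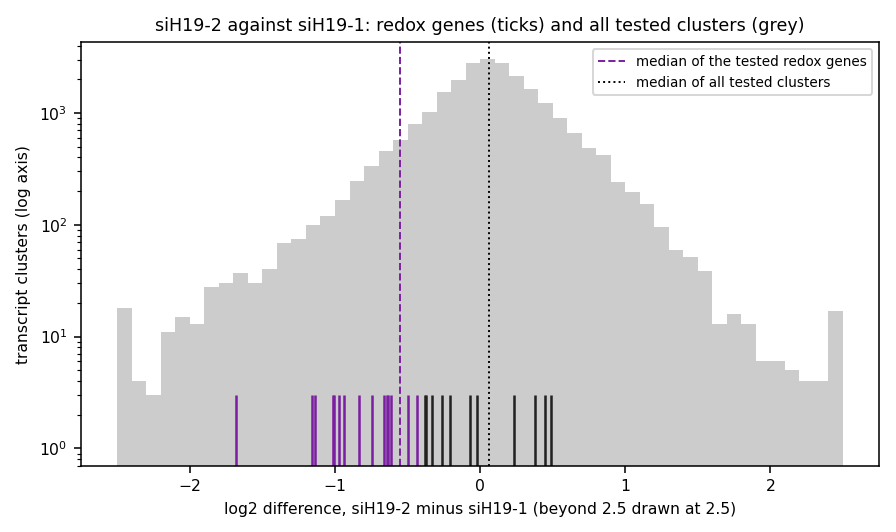
Log2 difference of siH19-2 minus siH19-1 (horizontal axis) for all 24721 tested clusters (grey histogram, logarithmic count axis) and for the 26 redox genes (ticks; purple passed, black did not). The median of the redox genes is -0.555 and that of all clusters 0.06, and the 15 purple ticks all lie below 0.

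Of 93 further genes of these systems, from lists written without the 36, 64 were tested. These lists were also chosen with earlier results of these data known, so they are not an independent check. With siH19-2 5 of the 64 rose and 19 fell (10.2% and 10.8% of all clusters), and with siH19-1 6 rose and 1 fell (2.65% and 3.56%). Between the siRNAs 1 was higher and 23 lower with siH19-2 (9.76% and 8.42%), with a median of -0.205. Among regulators and cofactors of NRF2, 1 of 6 rose and 3 fell in the mean of both siRNAs, where 5.19% of all clusters rose and 7.17% fell. SQSTM1, whose protein p62 can sequester KEAP1, rose (0.69, adjusted p = 0.0168), while NFE2L3 (-1.365, adjusted p = 0.0054) and NFE2L1 (-0.615, adjusted p = 0.0308), which encode relatives of NRF2, and DPP3 (-0.69, adjusted p = 0.0298) fell.

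NFE2L3 was at -0.635 with siH19-1 and -2.095 with siH19-2. Of 22 further glutathione genes 0 passed in the limma fit for the mean of both siRNAs (12.4% of all clusters), and with siH19-2 0 rose and 3 fell, a share near the 10.8% of all clusters that fell. The 1 glutathione gene that rose with siH19-1 was GLO1, the glyoxalase that detoxifies methylglyoxal (1.325, adjusted p = 0.0096). GLO1 fell with siH19-2 (-0.83, adjusted p = 0.0104), and PIR, an NRF2 target, was likewise called in opposite directions (0.805, adjusted p = 0.0136, and -0.385, adjusted p = 0.0371). SQSTM1 rose and UGDH fell with each siRNA. Of 12 thioredoxin and methionine sulfoxide reductase genes 2 passed in the mean of both siRNAs. NXN, which encodes nucleoredoxin, rose (0.64, adjusted p = 0.0341) and TXNL1 fell (-0.48, adjusted p = 0.0457). NXN was at 0.945 with siH19-1 and 0.335 with siH19-2 (limma adjusted p = 0.0285 and 0.178), and TXNL1 at 0.245 and -1.205 (0.335 and 0.0046). With siH19-2 4 of the 12 fell and 2 rose, where 10.8% and 10.2% of all clusters did. Those that rose were the peroxiredoxin gene PRDX4 (0.755, adjusted p = 0.0229) and SESN2 (1.67, adjusted p = 0.0223). Of 11 pentose phosphate and NADPH genes 0 rose in the mean of both siRNAs and ME2, the mitochondrial malic enzyme, fell (-1.12, adjusted p = 0.0108). That share is near the 12.4% of all clusters called in the mean of both siRNAs. With siH19-2 1 rose and 5 fell, where 10.2% of all clusters rose and 10.8% fell. ME2 was at -0.11 with siH19-1 (limma adjusted p = 0.773) and -2.13 with siH19-2 (0.0029). IDH2 (-0.485, adjusted p = 0.0406) and MTHFD1 (-0.705, adjusted p = 0.0175), which make NADPH, fell with siH19-2. IDH1, which makes NADPH too, was the gene that rose with siH19-2 (0.66, adjusted p = 0.0396). TXNL1, PRDX4, SESN2, ME2, IDH1, IDH2, MTHFD1, GLO1 and PIR were named after their values were seen. Of 13 further NRF2 targets and antioxidant enzymes 2 passed in the mean of both siRNAs. The quinone reductase gene NQO2 rose (0.48, adjusted p = 0.0269) and UGDH, which supplies UDP-glucuronate, fell (-0.565, adjusted p = 0.0217). NQO2 was at 0.75 with siH19-1 (limma adjusted p = 0.0199) and 0.215 with siH19-2 (0.202). With 2 genes called in this list and 2 in the thioredoxin list, both shares are near the 12.4% of all clusters called in that mean.

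The start regions of the 26 tested genes were searched, where an entry was at hand, for the core of the antioxidant response element. Classical targets of NRF2 were among the genes that rose and, as with NQO1, among those that fell. The search took the 250 bases before each RefSeq gene start (GRCh38.p14) and the motif TGACNNNGC on both strands. Of the 26 tested genes 21 had an entry, while GSR, HMOX1, PRDX1, PRDX6 and SOD1 were not searched, and 5 of these 21 (23.8%) held a match in at least 1 of their start regions: GCLM, ME1, TXNRD1, KEAP1 and PGD. Among all genes with an entry 13.2% did. A gene with several start regions had more chances of a match, and these shares are not adjusted for that. Of all 35116 start regions 10.9% held a match. The longer motif TGACNNNGCA, which contains the first, was found for 3 of the 21 (GCLM, TXNRD1 and KEAP1) and for 3.22% of all genes. The windows of GCLM, ME1 and TXNRD1 are printed because these genes rose, and that of PGD because it holds a match and fell. Each is given 5′ to 3′ on the gene's strand, with the match in capitals.
GCLM, chr1:93909431-93909680, minus strand: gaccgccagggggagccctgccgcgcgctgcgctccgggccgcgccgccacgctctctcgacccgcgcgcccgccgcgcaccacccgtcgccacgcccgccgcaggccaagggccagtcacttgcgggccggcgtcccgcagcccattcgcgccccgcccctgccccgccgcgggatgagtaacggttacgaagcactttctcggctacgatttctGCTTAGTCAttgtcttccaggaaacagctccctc
ME1, chr6:83431052-83431301, minus strand: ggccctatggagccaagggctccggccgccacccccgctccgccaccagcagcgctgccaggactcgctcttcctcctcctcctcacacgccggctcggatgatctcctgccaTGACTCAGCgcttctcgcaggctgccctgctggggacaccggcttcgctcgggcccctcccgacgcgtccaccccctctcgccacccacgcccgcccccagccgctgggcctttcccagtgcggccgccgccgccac
TXNRD1, chr12:104286782-104287031, plus strand: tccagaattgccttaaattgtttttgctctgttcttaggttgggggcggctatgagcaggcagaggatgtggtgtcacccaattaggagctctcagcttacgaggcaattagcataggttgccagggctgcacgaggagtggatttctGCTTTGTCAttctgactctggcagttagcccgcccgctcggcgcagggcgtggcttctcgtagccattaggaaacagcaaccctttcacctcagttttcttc
PGD, chr1:10398814-10399063, plus strand: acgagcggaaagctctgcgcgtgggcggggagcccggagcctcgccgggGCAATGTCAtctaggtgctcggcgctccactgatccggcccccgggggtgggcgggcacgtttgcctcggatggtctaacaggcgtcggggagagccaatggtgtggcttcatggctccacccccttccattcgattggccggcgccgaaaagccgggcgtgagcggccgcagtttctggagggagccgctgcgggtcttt
The GCLM match is on the other strand, where it reads TGACTAAGC, 26 to 34 bases before the start. That of ME1 is TGACTCAGC, 129 to 137 bases before the start, and that of TXNRD1 reads TGACAAAGC on the other strand, 94 to 102 bases before this start. A second TXNRD1 start has TGACTTCGC 91 to 99 bases before it. The PGD match reads TGACATTGC on the other strand, 193 to 201 bases before the start. FTL, NQO1, GCLC and TXN had no match in this window, and sequence outside it was not searched. A match of these letters is a description of the sequence and not a binding site shown here.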

How the data were processed

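Expression was measured with 1 whole-transcript array for each of 6 HCT116 samples. The deposited values were log2 signals, which the authors made with Affymetrix Expression Console and RMA per the submitters' processing notes; versions and genome build are not given in the sources used here. Of 70523 rows, 67528 were transcript clusters, and the other 2995 were not tested. Symbols came from the platform annotation. Each listed gene had at most 1 single-symbol cluster, so the choice of the row of highest mean was not needed.

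On the log2 scale, limma 3.58.1 (R 4.3.3) estimated 1 mean for each of the 3 groups, with variances moderated along the mean signal (eBayes, trend; 3 residual and 2.75 prior degrees of freedom), using the 24721 clusters that passed the filter. Two-sided p-values received the Benjamini-Hochberg adjustment over these clusters, separately for each comparison, with a threshold of 0.05. Intervals and SE came from this fit. The number of arrays limits the precision.

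The genes, the lists of further genes and the tests were chosen with earlier results of these data known. Every gene called in at least 1 comparison is given with its value on each array, and the others by level or range. Of the further genes those called in the mean of both siRNAs without overlap of arrays are named, at most 5 per list.

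The reported fit has no replicate block. Deviations of same-numbered arrays from their group means correlated at 0.29 (control and siH19-1), 0.20 (control and siH19-2) and 0.20 (siH19-1 and siH19-2). The labels do not say that a number marks a shared day, but every correlation was above 0.1, so a fit with the replicate block is printed where it changed a call. Other alternatives were filters, normalizations, eBayes without trend, the groups compared alone and leaving out each array.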

Additional observations from a re-analysis of the deposited data

Results flagged for a closer look

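The effect of the siRNAs differed between siH19-1 and siH19-2 for 15 genes, tested as siH19-2 against siH19-1 in the limma fit. The log2 difference was -1.685 for PGD, -1.16 for GCLM, -1.14 for HMOX1, -1.015 for TKT, -1.005 for PRDX2, -0.975 for GPX4 and -0.94 for TXN. It was -0.835 for RPIA, -0.745 for SOD1, -0.665 for NQO1, -0.64 for GPX1, -0.635 for CAT, -0.615 for PRDX1, -0.495 for PRDX3 and -0.435 for FTL. No group has the 4 arrays that a search for outlying arrays would need.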

How the results depend on the processing

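The number of called genes was 11 for the mean of both siRNAs, 7 with siH19-1, 13 with siH19-2 and 15 between the siRNAs. Without each array in turn it ranged from 3 to 7, 0 to 4, 4 to 13 and 1 to 15 in that order, with 1 fewer residual degree of freedom. With no filter it was 7 for the mean of both and 3 with siH19-1. With siH19-1 it was also 4 with median centring and 4 with the groups compared alone. Scaling to the median of the AFFX and ERCC rows, chosen after seeing the data, gave 5, 1, 7 and 6. TXNRD1, ME1 and FTL then did not pass with siH19-1 (0.75, 0.94 and 0.925, limma adjusted p = 0.231, 0.0909 and 0.0906). ME1 and FTL did not pass with siH19-2 either (0.75 and 0.51, adjusted p = 0.148 and 0.411), nor FTL for the mean of both (0.113). That scaling shifted the median of all clusters by -0.11 for the mean of both, -0.12 with siH19-1 and -0.10 with siH19-2, and scaling to the 2995 non-cluster rows shifted it by 0.15 between the siRNAs. Counts under eBayes without trend, the filter at log2 6, quantile normalization, scaling to the non-cluster rows and the replicate block stayed within 1.5 times. With the replicate block they were 12, 10, 14 and 16, and beyond the values given with the results it changed no call of these genes. The share of all clusters called is printed above for the fits without an array and not for the other alternatives. Whether these counts moved apart from that share was not tested. Of 1121 values of the 19 genes called in some comparison, 911 kept sign and side of the threshold, 201 were no longer past it, 6 came to pass and 3 changed sign, none of them a called value: PRDX3 in the mean of both (0.0975) was -0.0125 with AFFX and ERCC scaling, and GPX1 with siH19-1 (0.075) was -0.045 with that scaling and -0.06 without control replicate 2, in a range up to 0.21 without single arrays. H19 (0.045) was -0.0075 with median centring and -0.055 without control replicate 1. The causes were not tested. Averaging several clusters of a gene was not run, since no gene here had more than 1.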
